A study of Homo sapiens with 16 samples.

Results

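The transcripts described here are PLA2G2A and IFI27L2, 2 of the 60642 gene symbols in a table of TPM values, which give the relative abundance of each transcript after correction for its length, from 16 RNA sequencing libraries. They were selected on their measured values, chosen by their TPM in the DHT, VEH and antagonist groups as the genes that fell most with the androgen dihydrotestosterone (DHT) and came back when an antagonist was added. Both passed the filter that kept 16636 genes for testing, a TPM of at least 1 in 2 or more libraries. Because the contrasts DHT against VEH and antagonist with DHT against DHT chose them, their values in those contrasts are given as a description, with no test.

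The cells were LNCaP, an androgen-dependent human prostate cancer line, here the single clone FGC according to the methods of the study. They grew for 72 h with 5% fetal bovine serum and then spent 48 h in 5% charcoal-stripped serum, from which most steroid has been removed, and all 8 groups share this androgen-poor background. Treatment lasted 48 h. The VEH group received the solvents ethanol and DMSO, and the DHT group received 10 nM DHT. The BIC.VEH, ENZ.VEH and APA.VEH groups received 10 µM bicalutamide, enzalutamide or apalutamide without DHT, and BIC.DHT, ENZ.DHT and APA.DHT received the same dose of antagonist together with 10 nM DHT. Each group had 2 biological replicates, and the comparisons ask how an androgen and its antagonists set the level of each transcript.

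The androgen receptor is a nuclear receptor that androgens switch on. Bound to DHT it raises the transcription of many prostate genes and lowers that of others, and bicalutamide, enzalutamide and apalutamide compete with DHT for the same pocket. PLA2G2A encodes the group IIA secretory phospholipase A2, a small enzyme that leaves the cell and cuts a fatty acid, often arachidonic acid, from phospholipids, including those of bacterial membranes. It is known as an acute-phase protein of inflammation and is often abundant in prostate tumours. IFI27L2 belongs to the ISG12 family of small hydrophobic proteins with IFI6, IFI27 and IFI27L1. IFI6 and IFI27 are classical interferon-induced genes. The function of IFI27L2 is less well described.

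In the RefSeq annotation of GRCh38.p14, PLA2G2A lay on chromosome 1 from 19975431 to 19980434 on the minus strand, with 8 transcripts, and IFI27L2 on chromosome 14 from 94127781 to 94129604 on the minus strand, with 1 transcript. Neither gene overlapped another annotated gene (0 for each). The bases just before their transcription starts are shown because they differ in the motifs they hold. Capitals mark the motif matches found by the search described next. The first line is the stretch of 250 bases before the outermost start of PLA2G2A (chr1:19980435-19980684), which held none of the motifs searched. The second is the stretch of 30 bases before an inner start of the same gene, at 19979618 (chr1:19979619-19979648), in which the capitals mark AGAACA. The third is the stretch of 250 bases before the start of IFI27L2 (chr14:94129605-94129854), in which the capitals mark GGGCGG and, nearest to the start, a match on the other strand to an NF-kB-like pattern, GGGA and CC with 4 bases between them. All are from RefSeq, written 5′ to 3′ on the strand of the gene.
PLA2G2A outer start: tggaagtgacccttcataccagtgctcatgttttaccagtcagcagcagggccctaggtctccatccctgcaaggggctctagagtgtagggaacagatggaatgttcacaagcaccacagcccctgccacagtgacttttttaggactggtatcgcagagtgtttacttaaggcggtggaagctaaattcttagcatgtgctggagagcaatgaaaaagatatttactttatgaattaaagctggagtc
PLA2G2A inner start: atttaaggggagcaggagtgcAGAACAaac
IFI27L2 start: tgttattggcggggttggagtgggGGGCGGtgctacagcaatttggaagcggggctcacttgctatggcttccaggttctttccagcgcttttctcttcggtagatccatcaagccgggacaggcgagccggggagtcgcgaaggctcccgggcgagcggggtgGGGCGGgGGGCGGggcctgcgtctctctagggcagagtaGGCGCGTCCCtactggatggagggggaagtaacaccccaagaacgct

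The search covered windows from 250 bases before to 50 bases after each start, on both strands, with no motif overlapping another within these stretches. AGAACA, 1 arm of the androgen receptor element, was found at positions -9 to -4 of the inner PLA2G2A start, counted from the start, and the same bases fell at 33 to 38 in the window of another PLA2G2A start at 19979659. The same letters were present in 14.8% of 35116 RefSeq windows. The inverted pair of such arms with 3 bases between them was in neither gene and in 1 window of all. IFI27L2 had GGGCGG, a GC box, at -226 to -221, at -86 to -81 and at -79 to -74, and 45.0% of all windows held at least 1. It also had the NF-kB-like pattern, present in 25.6% of windows, at -47 to -38. The core of the interferon-stimulated response element, GAAA repeated after 2 other bases, was present in 3.57% of windows. It was not found in the window of IFI27L2 or IFI27L1, whereas IFI6 had 3 matches. Each of the 2 windows of IFI27 had 2, with the same letters at the same spacing, so they may be the same sites. TATAAA, present in 11.5% of windows, was in no window of either gene. The stretch before IFI27L2 was 64% G and C with 19 CpG pairs, and those before the 3 PLA2G2A starts were 46.8% to 53.6% with 2 to 4, against a median of 58% G and C over all windows. No binding or methylation was measured here, so these matches describe sequence only.

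PLA2G2A was an abundant transcript without androgen and a modest one with it. Its TPM was 448.45 and 301.29 in the VEH replicates (375 ± 104, SD, n = 2) and 23.1 and 12.27 in the DHT replicates (17.7 ± 7.66). Both DHT libraries lay far below both VEH libraries, and the ratio of VEH to DHT was 19.4 in replicate 1 and 24.6 in replicate 2. In rank, PLA2G2A was gene 255 and gene 379 from the top in the VEH libraries and gene 5565 and gene 8174 in the DHT libraries. On the log2(TPM + 1) scale the difference of the means was -4.37, the value by which the gene was chosen. That scale understates changes of low values, which matters more for IFI27L2.

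IFI27L2 was roughly an order of magnitude less abundant than PLA2G2A, and TPM is corrected for transcript length, so the levels may be set side by side. Its TPM was 44.04 and 27.95 in VEH (35.99 ± 11.4, SD, n = 2) and 3.89 and 0.97 in DHT (2.43 ± 2.06). The groups did not overlap, and the ratio of VEH to DHT was 11.3 in replicate 1 and 28.8 in replicate 2. The second ratio rests on a value of 0.97 TPM and is correspondingly less precise. The difference of the means was -3.54 on the log2(TPM + 1) scale and -4.09 with a pseudocount of 0.1. IFI27L2 was gene 3669 and gene 5185 from the top in VEH and gene 11291 and gene 14904 in DHT. In a bulk sample, fewer cells that express a gene and less RNA per cell cannot be told apart.

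Adding an antagonist to DHT brought both transcripts back, to different extents. With bicalutamide and DHT, PLA2G2A was at 284.33 and 165.53 TPM (225 ± 84.0), 60.0% of the VEH mean. With enzalutamide and DHT it was at 396.21 and 255.09 (326 ± 99.8), and with apalutamide and DHT at 453.45 and 293.1 (373 ± 113), which were 86.9% and 99.6% of the VEH mean. Every one of these libraries was above every DHT library, and the BIC.DHT values were the lowest of the 3 antagonists within each replicate number.

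For IFI27L2 the BIC.DHT replicates were at 19.49 and 10.16 TPM (14.8 ± 6.60), 41.2% of the VEH mean. The ENZ.DHT replicates were at 51.76 and 24.53 (38.1 ± 19.3) and the APA.DHT replicates at 42.47 and 22.78 (32.6 ± 13.9), 106% and 90.6% of it. The ENZ.DHT and APA.DHT values overlapped those of VEH, and the BIC.DHT values were below both VEH values. As a share of the log2(TPM + 1) gap between VEH and DHT, bicalutamide left 15.5% and 19.1% for PLA2G2A in replicates 1 and 2 and 35.5% in both replicates for IFI27L2. Enzalutamide left 4.22% and 5.31% for PLA2G2A, and apalutamide left -0.378% and 0.879%, that is, none within the spread of the replicates. For IFI27L2, enzalutamide left -7.13% and 4.68% and apalutamide 1.60% and 7.32%. The log2 differences from DHT alone, which also chose the genes, were 3.61, 4.16 and 4.35 for PLA2G2A and 2.28, 3.56 and 3.37 for IFI27L2 with bicalutamide, enzalutamide and apalutamide.

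**Figure D1:**
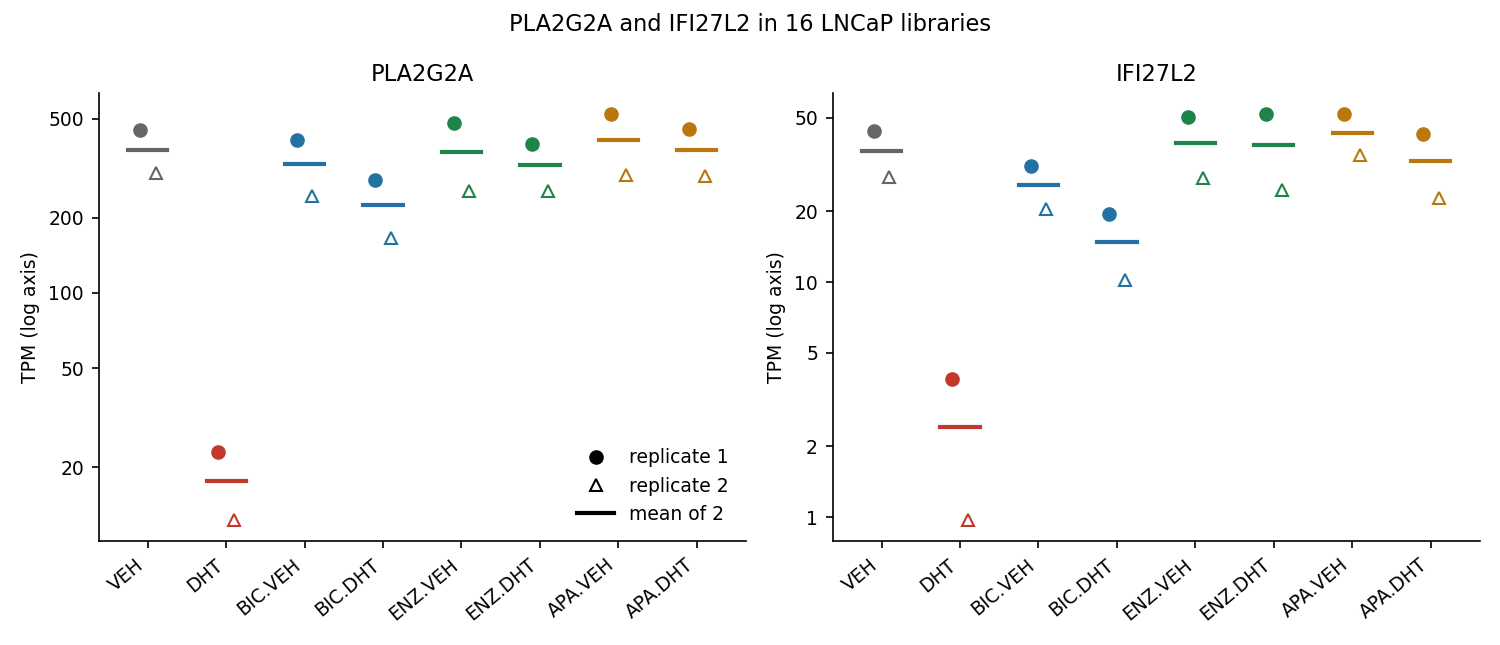
TPM on a log axis of PLA2G2A (left) and IFI27L2 (right) in the 8 groups, with replicate 1 as filled circles, replicate 2 as open triangles and the mean of the 2 as a bar. DHT alone lies below all other groups for both genes, BIC.DHT is next lowest, and replicate 1 is above replicate 2 in all 8 groups.

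Without DHT the antagonists left both transcripts high. PLA2G2A was at 411.37 and 243.89 TPM in BIC.VEH, 477.7 and 256.76 in ENZ.VEH, and 522.13 and 296.29 in APA.VEH. IFI27L2 was at 31.23 and 20.54 in BIC.VEH, 50.55 and 27.75 in ENZ.VEH, and 51.9 and 34.55 in APA.VEH. Over the 14 libraries other than DHT alone, PLA2G2A ranged from 165.53 to 522.13 TPM with a median of 299 and IFI27L2 from 10.16 to 51.9 with a median of 29.6. The lowest of those libraries was BIC.DHT replicate 2 for both genes, and it was 7.17 times the higher DHT library for PLA2G2A and 2.61 times for IFI27L2.

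Ordered by mean TPM, PLA2G2A was highest in APA.VEH (409), then VEH (375), APA.DHT (373), ENZ.VEH (367), BIC.VEH (328), ENZ.DHT (326), BIC.DHT (225) and DHT (17.7). The replicates of neighbours in this order overlapped at every step except the last, from BIC.DHT to DHT. IFI27L2 followed the order APA.VEH (43.2), ENZ.VEH (39.1), ENZ.DHT (38.1), VEH (35.99), APA.DHT (32.6), BIC.VEH (25.9), BIC.DHT (14.8) and DHT (2.43). Its neighbours overlapped except at the last 2 steps, from BIC.VEH to BIC.DHT to DHT. After scaling each library by its median ratio to the others, BIC.VEH and BIC.DHT overlapped as well, and the order among the upper groups changed while BIC.DHT and DHT kept the lowest places.

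The 2 genes also moved together between replicates, which the choice of the genes did not use. Replicate 1 was higher than replicate 2 in 8 of 8 groups for PLA2G2A, by a ratio of 1.49 to 1.88 with a median of 1.70, and in 8 of 8 groups for IFI27L2, by 1.50 to 4.01 with a median of 1.84. The 4.01 belongs to DHT alone, where IFI27L2 was lowest. In a fit with the replicate number as a term (limma, Benjamini-Hochberg adjustment), replicate 2 was lower than replicate 1 by -0.74 on the log2 scale (SE 0.05, adjusted p = 3.81e-06) for PLA2G2A and by -0.84 (SE 0.08, adjusted p = 3.36e-05) for IFI27L2. With only 2 replicate numbers, this SE and p measure how constant the gap was over the 8 groups, not whether it would recur in other cultures. Of all genes tested, 40.2% were called between the replicates, 10.4% were higher in replicate 1 in every group and 17.8% were lower in every group. What the replicate number shares was not stated in the labels, and its part in these levels was not tested.

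Across the 16 libraries the log2(TPM + 1) values of the 2 genes had a Pearson r of 0.969, with 8 groups and 2 replicate numbers shared by all points and 2 DHT libraries far from the rest. Over the 14 libraries without DHT alone it was 0.920, and over the 8 group means 0.974. Both genes were chosen for low values in the same DHT libraries and for their return in the libraries with antagonist and DHT, which are also among the 14, so all 3 values partly describe that choice.

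**Figure D2:**
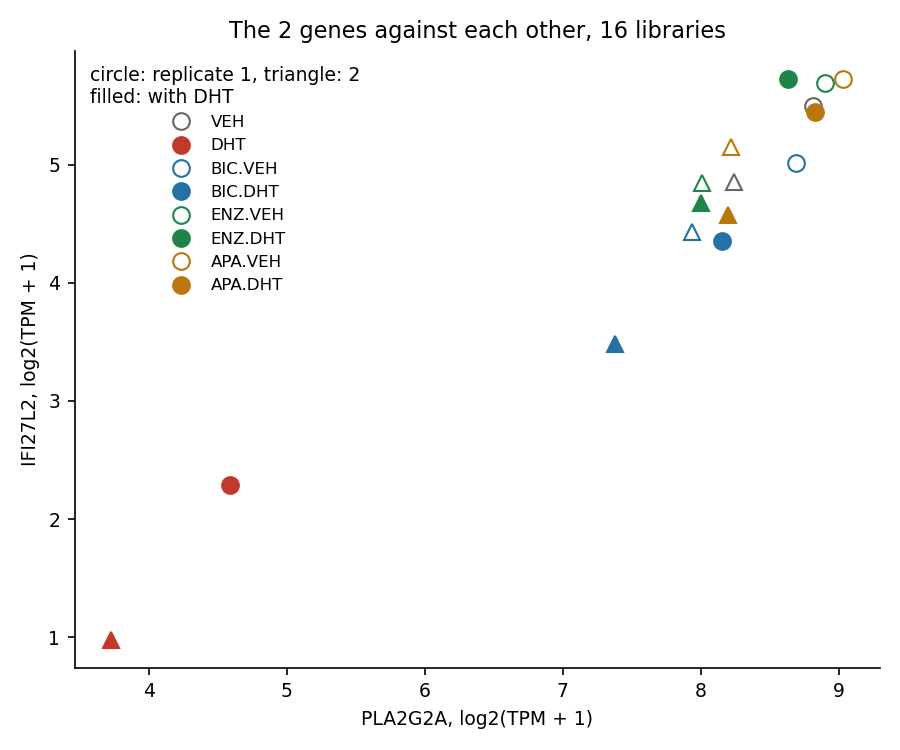
IFI27L2 against PLA2G2A, both as log2(TPM + 1), in the 16 libraries, with color for the antagonist, filled symbols for libraries with DHT, circles for replicate 1 and triangles for replicate 2. The 2 DHT libraries sit at the lower left, BIC.DHT replicate 2 is the next point up, and the rest form a band in which replicate 1 is higher than replicate 2 on both axes in each group.

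The contrasts that involve an antagonist without DHT were tested with limma on log2(TPM + 1) over all 16 libraries, and a gene was called at a Benjamini-Hochberg adjusted p below 0.05 over all genes. As a background, 10.3% of genes were called in DHT against VEH and 6.64% were called lower in it, while 1.45%, 4.74% and 4.25% were called higher with bicalutamide, enzalutamide or apalutamide plus DHT than with DHT alone. Most other contrasts had few calls or none. In the absence of DHT neither transcript was called with any antagonist. Against VEH, PLA2G2A differed by -0.21 with bicalutamide, -0.07 with enzalutamide and 0.10 with apalutamide (SE 0.46 each), and IFI27L2 by -0.45, 0.09 and 0.26 (SE 0.53 each), with an adjusted p of 1 throughout. The 95% intervals ran from -1.22 to 1.10 over the 3 contrasts of PLA2G2A and from -1.62 to 1.43 over those of IFI27L2, so changes of about that size were not detectable here. With the replicate block the interval for bicalutamide ran from -0.42 to -0.01 for PLA2G2A and from -0.82 to -0.09 for IFI27L2, still not called. Of all genes 0% were called with bicalutamide or enzalutamide alone and 0.00601% with apalutamide alone, whereas 194, 139 and 151 genes had an unadjusted p under 0.05. With the replicate number as a block the counts were 3, 0 and 2. These contrasts share the VEH libraries with the contrast that chose the genes.

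The antagonists were compared with each other at the same dose and time, in 3 pairs tested without DHT and 3 pairs described with it. Enzalutamide and apalutamide share a thiohydantoin core that bicalutamide lacks. Without DHT, PLA2G2A was higher by 0.14 with enzalutamide and by 0.31 with apalutamide than with bicalutamide, and IFI27L2 by 0.55 and 0.72, all with an adjusted p of 1 in limma. Apalutamide and enzalutamide differed by 0.17 for each gene (95% interval -0.84 to 1.17 for PLA2G2A and -0.999 to 1.34 for IFI27L2). With the block, the intervals of apalutamide against bicalutamide (0.11 to 0.52 for PLA2G2A and 0.36 to 1.08 for IFI27L2) and of enzalutamide against bicalutamide for IFI27L2 (0.19 to 0.91) were above 0, with an adjusted p of 0.657, 0.317 and 0.520. In these pairs 0% of genes were called for enzalutamide against bicalutamide, 0.012% for apalutamide against bicalutamide and 0.00601% for apalutamide against enzalutamide, where 297, 262 and 272 genes had an unadjusted p under 0.05.

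With DHT present, the levels under the 3 antagonists were among the values that chose the genes, so their differences are given with no test. In ENZ.DHT against BIC.DHT, PLA2G2A was higher by 0.48 in replicate 1 and 0.62 in replicate 2 on the log2 scale, and IFI27L2 by 1.36 and 1.19. In APA.DHT against BIC.DHT the differences were 0.67 and 0.82 for PLA2G2A and 1.09 in both replicates for IFI27L2. The BIC.DHT library was thus the lowest of the 3 at both replicate numbers and for both genes. Its replicates overlapped those of ENZ.DHT for PLA2G2A, and lay below those of APA.DHT for PLA2G2A and below those of both others for IFI27L2. APA.DHT and ENZ.DHT differed by 0.19 and 0.20 for PLA2G2A and by -0.28 and -0.10 for IFI27L2.

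The distance of each combination from VEH is a description for the same reason. BIC.DHT was below VEH in both replicates, by -0.66 and -0.86 for PLA2G2A and by -1.14 and -1.38 for IFI27L2. When 1 library was left out, the difference of the means (-0.76 and -1.26) ran from -1.15 to -0.37 for PLA2G2A and from -1.69 to -0.82 for IFI27L2. ENZ.DHT differed from VEH by -0.18 and -0.24 for PLA2G2A and by 0.23 and -0.18 for IFI27L2. APA.DHT differed by 0.016 and -0.040 for PLA2G2A and by -0.051 and -0.28 for IFI27L2, so only the bicalutamide combination was below VEH at both replicate numbers by more than 0.5 for both genes.

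Within each antagonist, libraries with and without DHT were compared, of which those with DHT also took part in the choice of the genes. The difference from the same antagonist without DHT was -0.54 for PLA2G2A and -0.80 for IFI27L2 with bicalutamide, -0.14 and -0.07 with enzalutamide, and -0.11 and -0.43 with apalutamide. With the replicate block, the bicalutamide values had a 95% interval of -0.75 to -0.34 for PLA2G2A (-0.53 in replicate 1 and -0.56 in replicate 2) and of -1.16 to -0.44 for IFI27L2 (-0.65 and -0.95), both below 0. Their adjusted p over all genes was 0.628 and 0.813 in limma with the block and 1 without it. No difference within an antagonist was called in either fit. The lowest adjusted p was 0.462, for PLA2G2A with enzalutamide (-0.14) in limma with the block. Each contrast was adjusted over its own genes, so the adjusted p does not rank the antagonists. In these contrasts 0%, 0.00601% and 0.00601% of genes were called with bicalutamide, enzalutamide and apalutamide, and 234, 541 and 408 had an unadjusted p under 0.05.

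Averaged over the 3 arms, the DHT effect was -0.26 for PLA2G2A and -0.43 for IFI27L2. Leaving out 1 library moved it between -0.41 (without ENZ.VEH replicate 2) and -0.12 (without ENZ.VEH replicate 1) for PLA2G2A and between -0.61 and -0.26 for IFI27L2, the extremes being the fits that lacked the first or the second ENZ.DHT library. Median-ratio scaling gave -0.16 for PLA2G2A and -0.34 for IFI27L2. In a two-sided exact permutation test, with the labels of libraries with and without DHT swapped inside an arm, p was 0.352 for PLA2G2A and 0.204 for IFI27L2, where the smallest p of all relabellings was 0.00926. Exchanging labels only between libraries of the same arm and replicate number gave exact p = 0.03125 for PLA2G2A, the smallest that 64 sign flips allow, and exact p = 0.0625 for IFI27L2. These p-values are not adjusted for the 2 genes. The libraries with antagonist and DHT also took part in the choice of the genes, so no conclusion is drawn from these p-values. With DHT, PLA2G2A was lower in 6 of 6 pairs of libraries and IFI27L2 in 5 of 6. The exception was enzalutamide in replicate 1, where IFI27L2 was at 51.76 TPM with DHT and 50.55 without. No difference in the response to DHT between arms was called in limma, where the differences ran from -0.36 to 0.73 (adjusted p = 1). In these contrasts 0% of genes were called for enzalutamide against bicalutamide (168 at an unadjusted p under 0.05) and 0.00601% for either comparison with apalutamide.

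**Figure D3:**
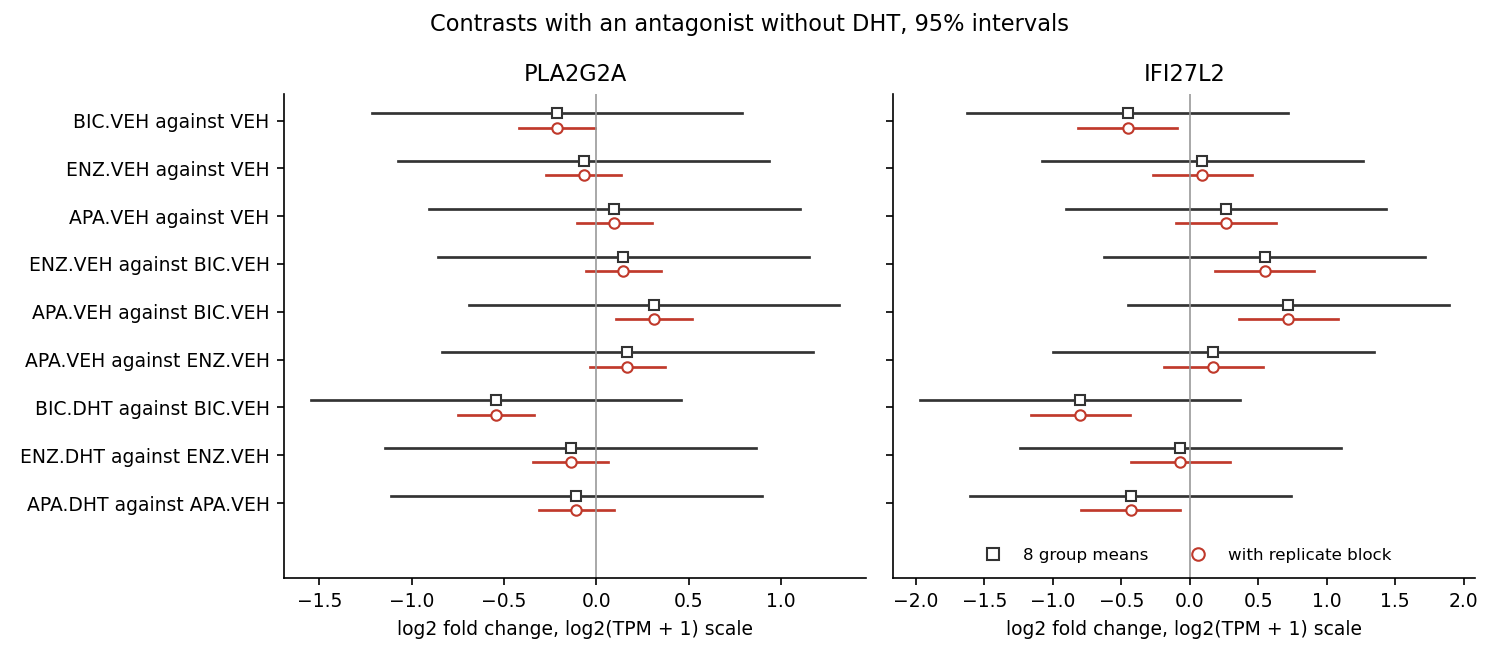
Log2 fold changes with 95% intervals of PLA2G2A (left) and IFI27L2 (right) in 9 contrasts between groups, from the fit of 8 group means (squares) and from the fit with the replicate block (circles), filled where the adjusted p is below 0.05. The estimates are the same in both fits, the intervals are narrower with the block, and no contrast is called in either.

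By the rule that ranked called genes with a mean TPM of at least 5 and no overlap between replicates, PLA2G2A was first and IFI27L2 second of 820 genes that fell with DHT. On log2 fold change alone they were 3 and 6 among all genes tested, since genes that were not called had lower values. The next by the rule were UGT2B17 (-3.26), which conjugates androgens, the small nucleolar RNA SNORA78 (-3.20, listed at 0 in both DHT libraries), BCHE (-2.98), which encodes butyrylcholinesterase, AOC1 (-2.96), a diamine oxidase, and DDC (-2.94), the decarboxylase that makes dopamine and serotonin. UGT2B17, the first gene outside the pair, was at 308 ± 27.2 TPM in VEH and 31.8 ± 9.29 in DHT. With bicalutamide, enzalutamide and apalutamide the difference from DHT alone was 2.72, 2.83 and 2.90 for UGT2B17, 2.44, 2.59 and 2.71 for BCHE and 2.52, 2.93 and 2.94 for DDC, all called in limma. For AOC1 it was 1.33, 2.16 and 2.07 (adjusted p = 0.399, 0.0708 and 0.0855) and for SNORA78 it was 0, 1.78 and 0 (adjusted p = 1, 0.171 and 1), none called.

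The likeness of other genes was measured as Pearson r of log2(TPM + 1) over the 16 libraries. The 5 genes most like PLA2G2A were DDC (0.996), SERPINI1 (0.995), FBXO2 (0.992), SVIP (0.990) and GUSBP1 (0.989). Those most like IFI27L2 were LINC02614 (0.985), HOXC4 (0.984), FBXO2 (0.981), LINC02718 (0.976) and FAM177B (0.973). FBXO2, a ubiquitin ligase subunit that binds glycoproteins, was the 1 gene in both sets of 5. IFI27L2 stood at place 17 among the genes most like PLA2G2A, and PLA2G2A at place 13 among those most like IFI27L2. All these points share the same libraries, and the 2 DHT libraries carry much of each r. Of the 5, 2 were kept for PLA2G2A and 1 for IFI27L2 when the DHT libraries were left out, and as many over the 8 group means.

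The nearest relatives of PLA2G2A did not share its level. The gene list of secretory phospholipases A2 with their receptor had 12 members, of which 4 passed the filter. Of the 3 besides PLA2G2A, 0 were called higher and 0 lower in DHT against VEH, where 10.3% of all genes tested were called in either direction. PLA2G12A, an atypical secretory enzyme, was at 50.4 ± 3.92 TPM in VEH and 76.0 ± 10.6 in DHT (log2 difference 0.58, adjusted p = 0.133 in limma). PLA2G2F, of the same gene cluster as PLA2G2A, was at 2.91 and 2.03 TPM in VEH and 0.42 and 0.13 in DHT (-1.44, adjusted p = 0.0559). Its values with DHT and bicalutamide were 1.74 and 0.8, and it was above its DHT values in every other library. PLA2G5 was at 1.03 and 0.32 TPM in VEH and 1.47 and 1.79 in DHT (0.68, adjusted p = 0.351). With the block, PLA2G2F was called lower (adjusted p = 0.00021) and PLA2G12A higher (adjusted p = 0.0300). Of the same 3 genes, 1 was called lower with a pseudocount of 0.1 and 1 higher with median-ratio scaling. PLA2G1B, PLA2G2C, PLA2G2D, PLA2G2E, PLA2G3, PLA2G10, PLA2G12B and the receptor PLA2R1 did not exceed 0.36 TPM in any library.

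All 4 members of the ISG12 family passed the filter. Of the 3 besides IFI27L2, 0 were called higher and 1 lower in DHT against VEH, where 6.64% of all genes tested were called lower. The called gene was IFI6. This gene, which limits cell death after interferon, was at 16.09 and 12.59 TPM in VEH and 5.7 and 5.59 in DHT (-1.20, SE 0.18, adjusted p = 0.00219). It rose from DHT with enzalutamide (0.92, adjusted p = 0.0111) and apalutamide (0.98, adjusted p = 0.00862) and not by the test with bicalutamide (0.56, adjusted p = 0.152). IFI27 was at 2.11 ± 0.382 TPM in VEH and 1.36 ± 0.417 in DHT (-0.40, adjusted p = 0.534). IFI27L1 was at 19.1 ± 4.95 and 15.5 ± 1.12 (-0.27, adjusted p = 0.654) and its replicates overlapped.

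The enzymes that precede and follow a phospholipase A2 were described by lists chosen with earlier results of these data known. Over all genes tested, 604 were called higher and 1105 lower in DHT against VEH and the median log2 fold change was -0.10. Median-ratio scaling set that median to 0 and gave 996 higher and 892 lower. Of 15 other phospholipases A2, 11 were tested, with 0 higher and 1 lower and a median of -0.11. The called gene was PLA2G6, a calcium-independent intracellular enzyme, at 66.3 ± 0.912 TPM in VEH and 40.6 ± 3.75 in DHT (-0.70, adjusted p = 0.0031). Cytosolic PLA2G4A, which supplies arachidonic acid in many inflammatory cells, did not exceed 0.39 TPM in any library. Of the other PLA2G4 genes, PLA2G4F was at 31.82 to 72.45 TPM over all libraries and PLA2G4B at 14.5 to 44.5. Neither was called in DHT against VEH in limma (0.68, adjusted p = 0.0929, and -0.50, adjusted p = 0.406). With the block PLA2G4F was called higher (adjusted p = 0.00203). PLA2G4C, PLA2G4D and PLA2G4E did not exceed 1.17, 0.67 and 0.29 TPM.

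Genes for the handling of arachidonate, which supply and reesterify the fatty acid that phospholipases release, had 5 of 11 tested members called higher and 0 lower, with a median of 0.69. These were ELOVL5 (2.61), a fatty acid elongase, ACSL3 (1.95) and ACSL1 (0.69), which attach fatty acids to coenzyme A, MBOAT2 (1.64), a lysophospholipid acyltransferase, and FADS2 (1.49), a desaturase. ELOVL5 was at 115.27 and 101.22 TPM in VEH and 690.3 and 635.87 in DHT, and thus ran opposite to PLA2G2A in both replicates.

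Of 25 genes of eicosanoid synthesis and breakdown, 14 were tested, of which 4 were called higher and 2 lower with a median of 0.07. HPGD, which inactivates prostaglandins, rose from 0.27 and 0.23 TPM in VEH to 4.24 and 9.18 in DHT (2.55, adjusted p = 0.000164). ABCC4 (1.62), a prostaglandin exporter, PTGR1 (1.31), a prostaglandin reductase, and PTGER4 (1.21), a prostaglandin E2 receptor, were also called higher. AKR1C3 (-1.94), a prostaglandin F and androgen synthase, and LTA4H (-0.75), a leukotriene A4 hydrolase, were called lower. AKR1C3 was at 8.32 and 8.13 TPM in VEH and 1.58 and 1.24 in DHT. The cyclooxygenases PTGS1 and PTGS2, which would turn arachidonic acid into prostaglandin H2, reached at most 0.87 and 0.04 TPM. Of the lipoxygenases, which also act on arachidonic acid, ALOX15 was at 81.87 to 148.78 TPM over all libraries. It was not called in DHT against VEH (-0.34, adjusted p = 0.348 in limma). ALOX5, ALOX12 and ALOX15B did not exceed 0.28, 0.29 and 0.93 TPM.

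Interferon-stimulated genes other than the ISG12 family had 40 of 53 members tested, with 0 called higher, 4 lower and a median of -0.20. The called genes were BST2 (-1.41), which tethers viruses to the cell, LGALS3BP (-1.29), a secreted lectin ligand, UBE2L6 (-0.94), a conjugating enzyme of ISG15, and PARP9 (-0.43). ISG15 itself, at 105 TPM in VEH and 70.7 in DHT, was not called (-0.54, adjusted p = 0.276). Of 10 tested interferon receptor and signalling genes, 0 were called higher and 1 lower, the kinase JAK2 (-0.62, adjusted p = 0.0332), with a median of -0.12. Of 10 tested inflammatory and acute-phase genes, 1 was called higher, the NF-kB subunit NFKB2 (0.86, adjusted p = 0.00456), and 0 lower, with a median of -0.09. IL6, which drives PLA2G2A as an acute-phase gene in other tissues, was listed at 0 in every library.

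With the replicate block, calls over all genes rose to 1762 higher and 2797 lower. The counts without the 2 genes themselves were then 1 higher and 1 lower of 3 in the secretory list, 1 and 2 of 11 among the other phospholipases, 6 and 3 of 11 for arachidonate handling, 5 and 3 of 14 for eicosanoids, 2 and 10 of 40 among interferon-stimulated genes and 0 and 4 of 10 for interferon signalling. The falls of PLA2G2A and IFI27L2 were larger than that of every other member of these 8 lists. Having been chosen for that fall, they are no evidence about the lists.

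**Figure D4:**
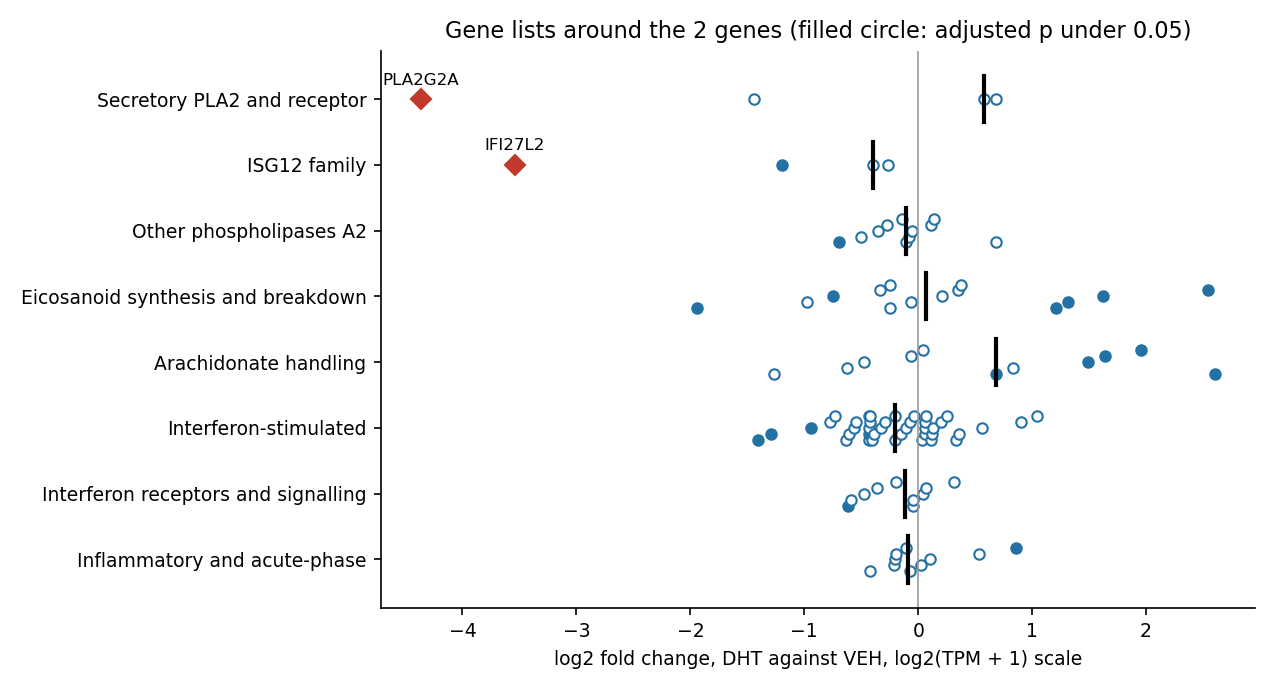
Log2 fold change in DHT against VEH of each tested member of the 8 gene lists, filled where the adjusted p is below 0.05 (circles), with PLA2G2A and IFI27L2 as diamonds that carry no test and the median of the other members as a vertical bar. The 2 diamonds lie at -4.37 and -3.54, the other members lie between -1.94 and 2.61, and the bar of arachidonate handling is farthest to the right at 0.69.

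On the chromosome, 10 protein-coding neighbours of each gene were examined, 5 on either side in RefSeq. Around PLA2G2A 4 were tested, with 0 called higher and 1 lower. Over all genes tested 6.64% were called lower, and 4 neighbours are too few to compare with that share. The called gene was OTUD3, a deubiquitinase whose nearest end is 62.5 kb from PLA2G2A. It was at 10.75 and 11.84 TPM in VEH and 2.93 and 3.96 in DHT (-1.48, SE 0.16, adjusted p = 0.0003), and at 7.23 and 7.69 with bicalutamide, 7.03 and 7.12 with enzalutamide and 7.4 and 8.03 with apalutamide in the presence of DHT. Unlike PLA2G2A, OTUD3 had no replicate gap in a fixed direction, and its values with antagonist and DHT were all below its VEH values. Without DHT it was also below both VEH values with bicalutamide (8.51 and 7.43) and apalutamide (9.54 and 8.01), and at 12.81 and 10.56 with enzalutamide. PLA2G2F and PLA2G5 lay 159 and 48.0 kb away. TMCO4 hardly moved (-0.13, adjusted p = 0.701), and the other 6 neighbours were below the filter.

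Around IFI27L2 5 of 10 neighbours were tested and 0 were called in either direction in limma, where 10.3% of all genes tested were called. IFI27 lay 11.1 kb away and IFI27L1 25.1 kb, and neither of these family members beside IFI27L2 was called. DDX24, an abundant RNA helicase, was at 240 TPM in VEH and 215 in DHT (-0.16, adjusted p = 0.541). OTUB2 (-0.04, adjusted p = 0.951) and SERPINA1 (-0.42, adjusted p = 0.146) were low in all libraries, at most 3.19 and 1.3 TPM.

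**Figure D5:**
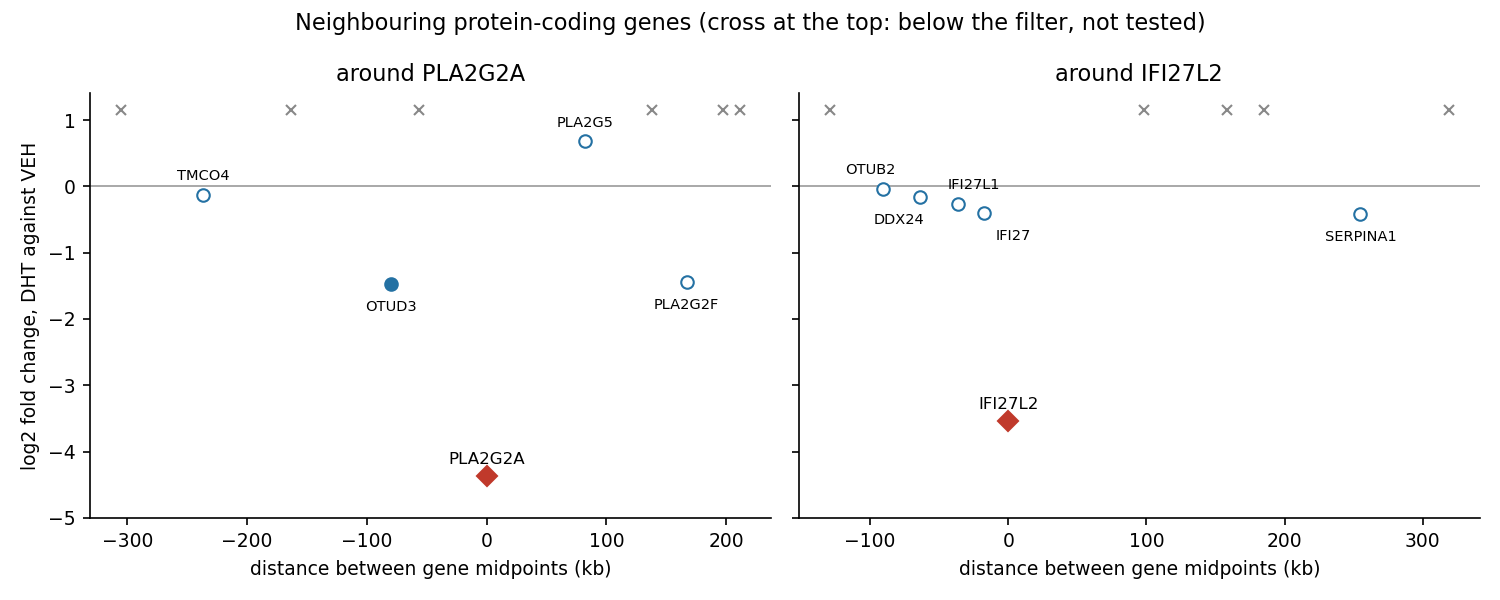
Log2 fold change in DHT against VEH (vertical axis) of the neighbouring protein-coding genes against the distance of their midpoints from PLA2G2A (left) or IFI27L2 (right) in kb, filled where the adjusted p is below 0.05, with crosses for genes that were below the filter and diamonds, which carry no test, for the 2 genes. OTUD3 at -1.48 is the filled point, PLA2G2F lies at -1.44, and the tested genes around IFI27L2 lie between -0.42 and -0.04.

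The libraries had 14652 to 15360 genes at 1 TPM or more and 14.7% to 22.3% of TPM in mitochondrially encoded genes. Both ends of the latter range were DHT libraries (replicate 1 at 22.3% and replicate 2 at 14.7%), and DHT replicate 1 had the fewest genes at 1 TPM. With mitochondrial genes removed, the differences of DHT from VEH were -4.34 for PLA2G2A and -3.59 for IFI27L2. All 7 luminal prostate markers were at 1 TPM or more in every library. KLK3, which encodes prostate-specific antigen and is switched on by androgen, was at 2422 to 4102 TPM in DHT and 20.4 to 845 elsewhere. KLK2, TMPRSS2, KRT8 and KRT18 were also higher in both DHT libraries than in any other. FOLH1 went the other way, at 646.72 to 675.18 TPM in DHT and 743.67 to 1022.11 elsewhere. HOXB13 was at 149.03 to 163.91 TPM in DHT and 161.52 to 257.55 elsewhere, with overlap. Of 11 markers of basal, stromal, endothelial and white blood cells, 7 stayed below 1 TPM in every library, the summed level was 19.3 to 43.0 TPM, and most of it was COL1A1. The fibroblast collagen gene COL1A1 was at 11.44 and 15.55 TPM in DHT and at 17.11 to 32.55 in the other 14 libraries, so it moved in the same direction as PLA2G2A and IFI27L2. The basal marker KRT14 went the other way, at 1.68 and 1.59 TPM in DHT and at most 0.68 elsewhere. The collagen partner COL1A2 did not exceed 0.01 TPM and the stromal gene DCN did not exceed 0.07. The leukocyte marker CD68 was higher in replicate 1 in 8 of 8 groups (2.27 to 12.1 TPM against 0.92 to 1.81), while PTPRC and CD3E did not exceed 0.10 and 0 TPM. The part of these marker differences in the levels of the 2 genes was not tested.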

How the data were processed

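The deposited table gives TPM, relative abundances corrected for transcript length, for each gene symbol and library, which the authors made from stranded, polyA-selected, paired 125 bp reads. The submitters' processing notes name FastQC 0.11.9, Trim Galore 0.6.5, STAR 2.7.2b and RSEM 1.3.3. TPM keeps no read depth, so depth per library is unknown and no counting interval is given. RSEM shares out reads of similar sequences by estimate. Columns were matched to groups by label, and columns of other samples numbered 0. Values were taken as log2(TPM + 1) and 16636 genes at 1 TPM or more in 2 or more libraries were fitted with limma 3.58.1 (R 4.3.3, trend, 8 group means), with Benjamini-Hochberg adjustment at 0.05. The limma fit of 8 group means was checked on simulated data for DHT against VEH, with noise that was independent between libraries. The labels call the replicates biological but do not say what a number shares. Deviations of same-numbered libraries correlated by 0.204 to 0.635 (median 0.427) over genes, above 0.1 in 28 of 28 pairs of groups. A fit with a replicate block is therefore given beside the main fit for some contrasts and for list counts. Not every list gene whose call changed with the block is named. Genes outside the pair were named as the next 5 called genes by size of fall with a mean of at least 5 TPM and no overlap, the 5 most alike, the neighbours, every member of the secretory and ISG12 lists, and in the other lists the called members with the 3 lowest and 3 highest changes. The PLA2G4 genes, PTGS1, PTGS2, ALOX5, ALOX12, ALOX15, ALOX15B, ISG15 and IL6 fall outside that rule and were named after their values were seen. The 2 genes, the lists and the tests were chosen with earlier results of these data known. Differences among antagonists with DHT, and between these and VEH, were to be tested but are given as descriptions, since both groups of each entered the choice of the genes. Sequences and positions are from RefSeq GRCh38.p14.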

Additional observations from a re-analysis of the deposited data

How the results depend on the processing

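The falls with DHT and the returns with antagonist kept their direction under all alternatives, with DHT against VEH at -4.80 to -3.93 for PLA2G2A and -4.20 to -2.88 for IFI27L2 when 1 library was left out. With the replicate block, the mean DHT effect over the 3 antagonists for PLA2G2A (-0.26) had an exact permutation p of 0.03125. That p is the smallest that 64 sign flips allow and is not adjusted for the 2 genes, so it is not counted as a call. The libraries with antagonist and DHT also took part in the choice of the genes, so no conclusion is drawn from it. The block changed no call of the 2 genes among the contrasts tested. Among the described differences, leaving out 1 library moved APA.DHT against BIC.DHT between 0.36 and 1.13 for PLA2G2A and 0.65 and 1.53 for IFI27L2, and ENZ.DHT against BIC.DHT between 0.16 and 0.94 and between 0.76 and 1.80. Median-ratio scaling turned the sign of ENZ.DHT against ENZ.VEH (0.0055 for PLA2G2A and 0.073 for IFI27L2), of APA.DHT against VEH (0.10) and of the DHT response with apalutamide against enzalutamide (-0.031) for PLA2G2A, and without mitochondrial genes APA.DHT against VEH was 0.018. These values lie near 0 and the cause was not tested.

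Leaving out 1 library also turned signs of small differences, none of them called. Without DHT, PLA2G2A ran from -0.59 to 0.16 for BIC.VEH, -0.52 to 0.38 for ENZ.VEH and -0.31 to 0.51 for APA.VEH against VEH, and IFI27L2 from -0.33 to 0.51 for ENZ.VEH and -0.055 to 0.58 for APA.VEH. Between antagonists alone, PLA2G2A ran from -0.30 to 0.59 (ENZ.VEH against BIC.VEH), -0.096 to 0.72 (APA.VEH against BIC.VEH) and -0.28 to 0.61 (APA.VEH against ENZ.VEH), and IFI27L2 from -0.25 to 0.59 in the last. APA.DHT against ENZ.DHT ran from -0.12 to 0.51 for PLA2G2A and -0.71 to 0.33 for IFI27L2. Within an antagonist the DHT effect ran from -0.59 to 0.31 and -0.59 to 0.45 with enzalutamide and -0.52 to 0.30 and -0.87 to 0.0035 with apalutamide for PLA2G2A and IFI27L2. Against VEH, ENZ.DHT ran from -0.53 to 0.11 and -0.50 to 0.55, and APA.DHT from -0.33 to 0.30 and -0.60 to 0.27. The response differed between arms by -0.042 to 0.85 (enzalutamide against bicalutamide, PLA2G2A), -0.069 to 0.81 (apalutamide against bicalutamide, IFI27L2) and -0.42 to 0.48 and -0.89 to 0.16 (apalutamide against enzalutamide).

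Calls over all genes in DHT against VEH were 1709, between 635 and 823 with 1 library of the contrast left out, 4559 with the replicate block and 173 with only the compared groups, whose spread rests on 4 libraries. In that last fit the ISG12 family had 0 calls besides IFI27L2, the eicosanoid list 1 higher and 1 lower, and interferon-stimulated genes 2 lower. The 3 calls of lists with 1 each, PLA2G6, JAK2 and NFKB2, were lost there. With 2 replicates and no depth, differences under about 1 on the log2 scale could not be resolved for either gene without the block.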

Other observations

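Leaving out the 2 DHT libraries, DDC and FBXO2 stayed among the 5 genes most like PLA2G2A, and LINC02614 among those most like IFI27L2. Pearson r over the remaining 14 libraries was 0.970 for DDC and 0.968 for FBXO2 with PLA2G2A, and 0.958 for LINC02614 with IFI27L2. These libraries share 2 replicate numbers, and those with antagonist and DHT also took part in the choice of the 2 genes.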
